A study of Rattus norvegicus with 15 samples.

Results

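The miRNA described here, rno-miR-1949, is 1 of 420 rat miRNAs on the panel and 1 of the 109 tested there. It was selected on its counts in the 15 lanes of the study, high in the 3 vehicle lanes and low in the rest, so its levels are given as a description with no test. MicroRNAs are short RNAs cut from a hairpin precursor. They guide Argonaute proteins to messenger RNAs that pair with the seed, the bases near the 5′ end of the miRNA, and such mRNAs are then less translated or less stable. The miRNA miR-1949 belongs to the later-numbered miRNAs of the rat catalogue, and no role in heart muscle is assumed for it here.

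The samples were cardiomyocytes of adult Sprague Dawley rats in 5 groups of 3, with 1 lane each. Cells from healthy hearts received doxorubicin (DOX, an anthracycline used against cancer that damages heart muscle) in culture for 6 h, or saline vehicle in culture for 6 h. The other groups were cells isolated from rats with heart failure after repeated DOX injections (in vivo DOX), cells from rats 4 weeks after ligation of the left coronary artery (myocardial infarction, MI), and cells from healthy age-matched controls. The DOX dose and the ages are not stated in the sources used here. Every group was plated on laminin for 1 h before RNA extraction to remove dying cells, so all of the preparations had some time in a dish. Nothing in the labels states that replicates are separate animals or cultures, so the spread between them, and p-values that rest on it, may be technical.

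The mature miRNA and its precursor, as RefSeq gives them on the rat build GRCr8, show the molecule that the probe is named for; the probe's own sequence was not used here. Capitals mark the seed (bases 2 to 8) in the first line and the mature miRNA within the hairpin in the second.
miR-1949: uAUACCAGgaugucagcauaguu
Mir1949 hairpin: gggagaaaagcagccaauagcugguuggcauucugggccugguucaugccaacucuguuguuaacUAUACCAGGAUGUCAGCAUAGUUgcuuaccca
The hairpin of 97 bases lies on the plus strand at chr18:27429688-27429784, and the mature miRNA of 23 bases takes its positions 66 to 88, in the 3′ arm, at chr18:27429753-27429775. It lies within the span of Matr3 (chr18:27428190-27474421), the gene of the nuclear RNA-binding protein matrin 3, on the same strand and 1498 bases from the gene's start. The annotation used gives gene spans without exons, so whether the hairpin is exonic or intronic is not stated here. Within 50000 bases lay the snoRNA gene Snora74a, the small nucleolar RNA host gene Snhg4, Paip2, which encodes a regulator of poly(A)-binding protein, and 2 uncharacterised lncRNA genes. None of the 11 other miRNA hairpins that the RefSeq table lists on the chromosome lay in this window.

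The seed had no counterpart among the 723 other rat mature sequences of the table: 0 shared bases 2 to 8, and 0 shared bases 2 to 7. The GC content of the mature miRNA was 39.1%, against a median of 47.6% over the other mature sequences. The longest run of bases it shared with any of them was 8, found in 5 sequences, and let-7d-5p was among these. The pair is printed because both end in the same bases, the shared run being in capitals; this pair was picked after the sequences were seen.
miR-1949: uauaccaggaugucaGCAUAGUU
let-7d-5p: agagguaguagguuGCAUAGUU
The panel's let-7d probe, whose name carries no arm, counted 3120, 2357 and 3342 in DOX-treated culture, against 3287, 3199 and 3160 in vehicle. It counted 817, 1510 and 1367 in age-matched controls. Normalized let-7d was 32876 ± 2574 CPM in DOX-treated culture, 23789 ± 1135 CPM in vehicle and 23104 ± 790 CPM in age-matched controls (SD, n = 3 each), so the mean of let-7d was not highest in vehicle. Whether the probe for miR-1949 also binds let-7d was not tested.

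Total miRNA counts were 71522 to 104987 per lane in DOX-treated culture, 122854 to 137746 in vehicle, 54608 to 133965 in in vivo DOX, 40381 to 77375 in MI and 36977 to 62663 in age-matched controls. The 5 muscle miRNAs checked (miR-1, miR-133a, miR-133b, miR-208 and miR-499) lay above background in all 15 lanes, and miR-1 took 17.1% to 26.7% of the miRNA counts of a lane. One sample stood apart in each of 3 groups. Compared over all miRNAs, chi-square per degree of freedom was 36.0 and 41.1 between in vitro DOX replicate 3 and the other DOX-treated cultures (1.85 between those), 17.8 and 30.9 for in vivo DOX replicate 1 (4.66), and 10.4 and 11.3 for MI replicate 3 (1.82). Between vehicle samples it was 1.59 to 1.73. The lanes of DOX-treated culture were read at scanner stage position 3 and all other lanes at stage position 4, so stage position and treatment cannot be told apart within the culture comparison. The vehicle lanes shared stage position 4 with the 9 lanes of cells from hearts.

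The raw counts of miR-1949 set the vehicle lanes apart from the rest. A lane's background was taken as the mean plus 2 SD of its 8 negative-control probes, which have no target in the sample. In DOX-treated culture miR-1949 counted 26, 17 and 37, below lane backgrounds of 43.4, 41.7 and 44.8. In vehicle it counted 262, 239 and 204, above backgrounds of 47.2, 42.5 and 33.3. Vehicle counts were thus 5.55 to 6.12 times the lane background, and none of the DOX-treated cultures reached it.

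Cells from hearts lay near background. In in vivo DOX the counts were 86, 38 and 37 with backgrounds of 43.9, 37.5 and 41.1. In MI they were 7, 18 and 26 with backgrounds of 11.8, 21.1 and 17.0, and in age-matched controls 20, 25 and 18 with backgrounds of 19.6, 36.2 and 29.6. Outside vehicle, 4 of 12 lanes were above background. In vivo DOX replicate 1 was 1.96 times its background and MI replicate 3 was 1.53 times its background. The remaining pair, in vivo DOX replicate 2 and control replicate 1, stood at 1.01 and 1.02 times theirs. That excess was less than the counting error of either lane (exact 95% Poisson intervals of 26.9 to 52.2 and 12.2 to 30.9 counts, which cover counting error only). High counts of miR-1949 were thus confined, in these 15 lanes, to vehicle, while in vivo DOX replicate 1 also lay clear of background.

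**Figure D1:**
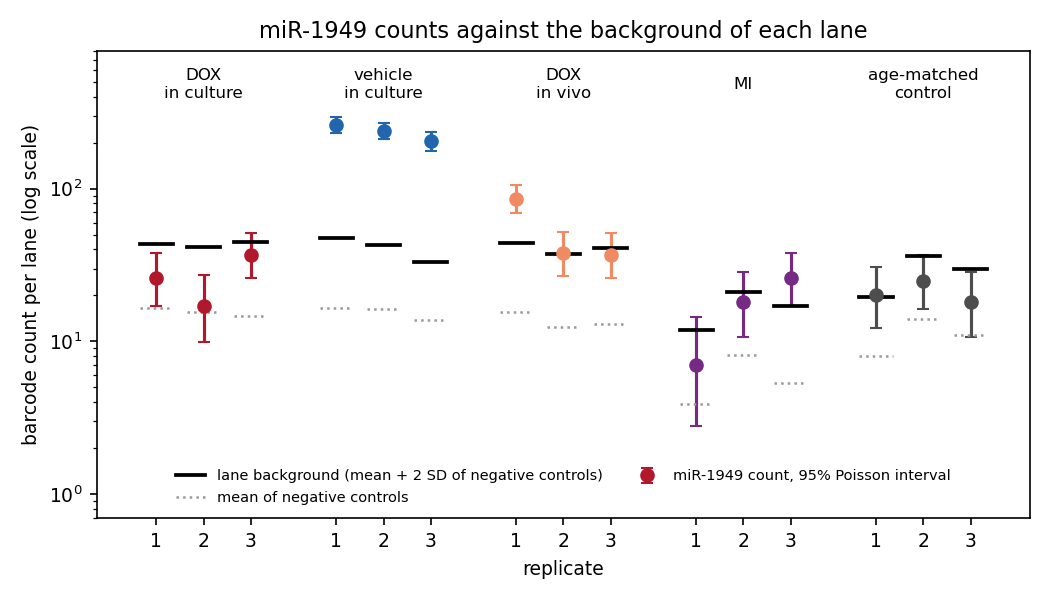
Barcode counts of miR-1949 in each of the 15 lanes on a log axis, with exact 95% Poisson intervals, beside the lane background (black, mean plus 2 SD of the 8 negative controls) and the mean negative control (dotted). Vehicle lanes sit at 204 to 262 counts, and the highest other lane, in vivo DOX replicate 1, at 86.

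For the 12 other lanes, the counts expected at the vehicle level were set beside the lane background. Had miR-1949 stood at its mean vehicle level in every lane, 62.9 to 216 counts would have been read outside vehicle, which is 2.54 to 6.37 times the background of those lanes. These values assume that the scaling described below holds between lanes. Positive-control probes summed to 21124 to 24037 counts in vehicle lanes and 4229 to 9661 in MI lanes. The part of depth or lane efficiency in the low counts was not tested. The lane of in vivo DOX replicate 1 had a miRNA total of 133965, within the range of the vehicle lanes, and held 86 counts where the vehicle level would have given 216.

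To compare lanes, counts were divided by the lane's miRNA total and scaled with TMM (normalized CPM, a level relative to the lane's miRNA total). On this scale miR-1949 stood at 292, 217 and 372 CPM in DOX-treated culture, against 1829, 1744 and 1619 CPM in vehicle. It stood at 689, 521 and 615 CPM in in vivo DOX, 167, 232 and 516 CPM in MI, and 550, 397 and 301 CPM in age-matched controls. Vehicle was high in every sample. The lowest vehicle sample was 2.35 times the highest sample of any other group.

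Group means were 293 ± 77.6 CPM in DOX-treated culture, 1731 ± 105 in vehicle, 608 ± 84.2 in in vivo DOX, 305 ± 186 in MI and 416 ± 126 in age-matched controls (SD, n = 3 each). Ordered by level, vehicle was followed by in vivo DOX, age-matched controls, MI and DOX-treated culture. Below vehicle, each pair of neighbours in that order overlapped between samples. In vivo DOX, with a lowest sample of 521 CPM, did not overlap MI (highest sample 516 CPM) or DOX-treated culture (highest sample 372 CPM).

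The 3 vehicle samples spread no more than counting alone would give. Their SD of 105 CPM compares with 113 CPM expected from counting alone, and their chi-square per degree of freedom for miR-1949 was 0.853. The same ratio was 1.78 in DOX-treated culture, 1.05 in in vivo DOX and 1.77 in age-matched controls. It was 5.78 in MI, where replicate 3 held 516 CPM beside 167 and 232 CPM.

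**Figure D2:**
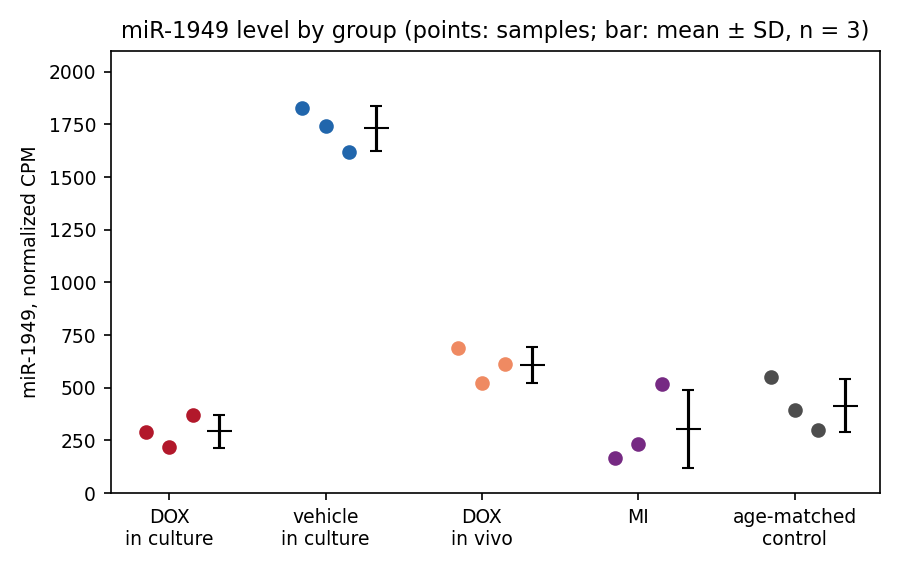
Normalized CPM of miR-1949 in each sample (points) with the group mean and SD (black, n = 3). Vehicle samples lie at 1619 to 1829 CPM and all samples of the other groups at 167 to 689 CPM. In vivo DOX (521 to 689 CPM) overlaps only age-matched controls (301 to 550 CPM).

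By rank among the 420 miRNAs of a lane, miR-1949 was 90th to 174th in DOX-treated culture and 46th to 49th in vehicle. It ranked 65th to 83rd in in vivo DOX, 69th to 153rd in MI and 79th to 127th in age-matched controls. Its mean share of miRNA counts was 0.0283% in DOX-treated culture and 0.179% in vehicle (probes may differ in efficiency, so ranks and shares compare lanes and not miRNAs).

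The culture comparison asked what 6 h of DOX does to cardiomyocyte miRNAs. The level of miR-1949 in DOX-treated culture stood at 293 CPM, against 1731 CPM in vehicle, and the groups did not overlap, as for 46.8% of the 109 miRNAs tested. The edgeR log2 fold change of DOX over vehicle was -2.54 (SE 0.30), 5.83-fold, the second largest in size among the tested miRNAs, whose median was 0.27. By edgeR with Benjamini-Hochberg adjustment 30.3% of them passed an adjusted p under 0.05, 16.5% higher and 13.8% lower in DOX-treated culture. That split moved with scaling: 18 higher and 15 lower became 9 and 22 with RLE factors, 12 and 15 with total-count scaling, 0 and 12 with housekeeping scaling, 0 and 23 with spike-in scaling and 0 and 1 with positive-control scaling. As the DOX lanes were at background, the ratio of means is limited by background. With each DOX lane at its background threshold the vehicle level was at least 3.54-fold higher in normalized CPM, a bound for that scale only. After the lane's mean negative control was subtracted, vehicle was 13.9 times DOX-treated culture. Negative-control and spike-in probes, which have no target in these cells, gave a median log2 difference of 0.47, opposite in sign to miR-1949. Without in vitro DOX replicate 3, the sample that stood apart, the log2 value was -2.75.

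The second comparison set vehicle culture against cells of healthy hearts without the 6 h of culture, a comparison in which all lanes shared the stage position. Vehicle held 1731 CPM and age-matched controls 416 CPM. The groups did not overlap, as for 67.0% of the miRNAs tested. The log2 fold change of vehicle over controls was 2.09 (SE 0.31), 4.26-fold, the largest in size of the 109, whose median was -0.11. By edgeR 18.3% of them passed an adjusted p under 0.05, 8.26% higher and 10.1% lower in vehicle. The 9 higher and 11 lower became 9 and 1 with RLE factors, 9 and 5 with total-count scaling, 3 and 25 with housekeeping scaling, 16 and 0 with positive-control scaling and 32 and 0 with spike-in scaling. At the threshold of each control lane not above background, the vehicle level was at least 3.21-fold higher in normalized CPM, a bound for that scale only. The ratio after subtraction of negative controls was 7.80. The median log2 difference of the control probes was -1.06, again opposite in sign.

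Markers of other cells also differed between these preparations, on a panel where groups often did not overlap. That held for 67.0% of the tested miRNAs between vehicle and controls, and for 46.8% between DOX-treated culture and vehicle. The endothelial miR-126 ranged over 66721 to 70808 CPM in vehicle and 20104 to 22102 CPM in age-matched controls. The 3 fibroblast miRNAs summed to 6452 to 7098 CPM in vehicle and 4318 to 4564 CPM in controls, and the 5 leukocyte miRNAs to 9968 to 10948 CPM in vehicle and 5656 to 5868 CPM in controls, with 2 of the 5 above background in all lanes of both groups. The 5 muscle miRNAs summed to 281067 to 295120 CPM in vehicle and 352362 to 354779 CPM in controls. In DOX-treated culture miR-126 ranged over 70925 to 92753 CPM, all above vehicle, whose highest sample was close at 70808 CPM. The fibroblast sum was 4318 to 6269 CPM there, all below vehicle, and 2 of the 3 fibroblast miRNAs were above background in all 3 lanes. The leukocyte sum of DOX-treated culture was 8058 to 40180 CPM and its muscle sum 221999 to 345509 CPM, both overlapping vehicle. The smooth muscle pair miR-143 and miR-145 summed to 47501 to 98692 CPM in DOX-treated culture, 46348 to 50709 CPM in vehicle and 52586 to 60285 CPM in controls, and neither of the 2 erythroid miRNAs was above background in all lanes of any group. No marker was at 0 in all lanes of a group. The part of other cells in the miR-1949 levels was not tested, and in bulk RNA a change in cell number cannot be told apart from a change per cell.

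In cells from diseased hearts miR-1949 overlapped age-matched controls. In vivo DOX held 608 CPM and controls 416 CPM, with a log2 fold change of 0.59 (SE 0.32). MI held 305 CPM and controls 416 CPM, with a log2 fold change of -0.42 (SE 0.36), or -0.98 without MI replicate 3. Groups did not overlap for 33.9% of the tested miRNAs in the in vivo DOX comparison and for 57.8% in the MI comparison. Both signs depended on scaling: housekeeping scaling turned in vivo DOX to -0.11, and positive-control scaling turned MI to 0.83. The positive-control probes summed to 4229 to 9661 counts in MI lanes, 17357 to 21869 in in vivo DOX lanes and 10053 to 18360 in control lanes. For the control probes the median log2 difference was -0.47 for in vivo DOX and -1.02 for MI.

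The authors' deposited tables of quantile-normalized group means gave miR-1949 a mean of 34.5 in DOX-treated culture and 163 in vehicle. They gave 64.1 in in vivo DOX and 43.4 in MI, each beside 42.6 in age-matched controls. Each of these tables holds 1 pair of groups and may have been normalized on its own, so values of the authors' deposited tables are read within a pair.

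**Figure D3:**
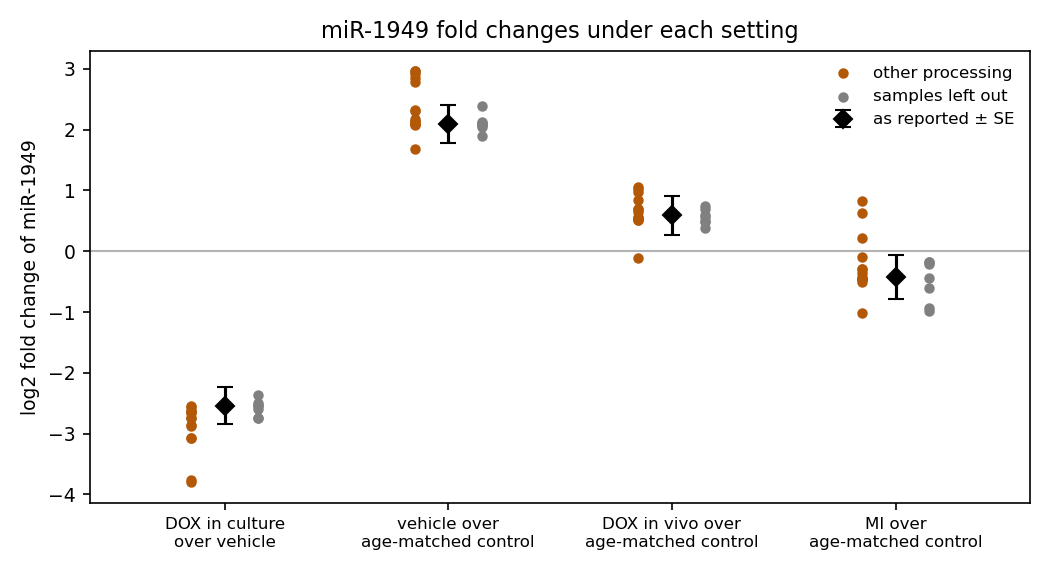
Log2 fold change of miR-1949 in 4 comparisons, as reported with its SE (diamonds), under other processing (orange) and with samples left out (grey). Every value for DOX-treated culture over vehicle is negative (-2.37 to -3.80) and every value for vehicle over controls is positive (1.68 to 2.96), whereas in vivo DOX and MI over controls cross 0.

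Across the panel, 6 of 109 tested miRNAs (5.50%) had every vehicle sample above all 12 others, and 8 (7.34%) had every vehicle sample below them. Besides miR-1949 the first set held miR-101a, the collagen-repressing family members miR-29b and miR-29c, and miR-30a and miR-30e, members of a family abundant in heart muscle. The gap was widest for miR-1949, whose vehicle mean was 2.84 times the mean of the next group, in vivo DOX. For miR-30e, the next, the vehicle mean of 2756 ± 387 CPM was 1.86 times the 1482 ± 231 CPM of age-matched controls. For miR-29b the ratio was 1.82 and for miR-30a 1.59, again over age-matched controls. In in vivo DOX, miR-29b stood at 2169 ± 1681, miR-30a at 1979 ± 1186 and miR-30e at 491 ± 354 CPM. Which group came next for miR-1949 depended on scaling, as in vivo DOX over controls turned to a log2 of -0.11 under housekeeping scaling. This comparison over 12 lanes was chosen after the values were seen.

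**Figure D4:**
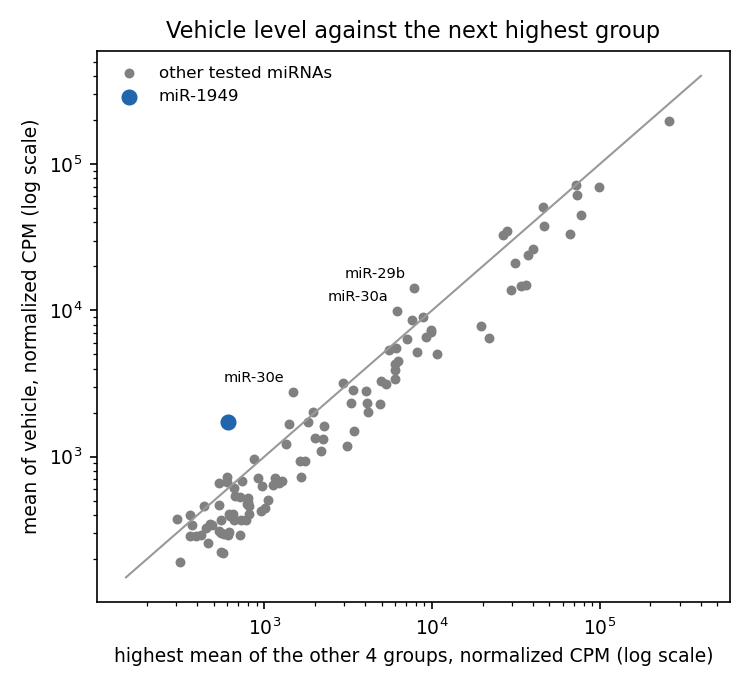
Mean vehicle level of each of the 109 tested miRNAs against the highest mean of the other 4 groups, both in normalized CPM on log axes, with the line of equality. The miRNA miR-1949 (blue), at 1731 against 608 CPM, lies farthest above the line, followed by miR-30e, miR-29b and miR-30a.

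No miRNA followed miR-1949 closely over the 15 lanes. The highest Pearson correlations of log2 CPM were 0.53 for miR-345-5p, 0.51 for miR-29a, 0.51 for miR-499, the miRNA of a slow myosin gene, 0.50 for miR-30e and 0.49 for miR-133b, a muscle miRNA. The lowest were -0.70 for miR-93, -0.67 for miR-99b and -0.61 for miR-107. These are descriptions over lanes that share groups and scaling. The choice by likeness favours miRNAs lower in DOX-treated culture than in vehicle. As the first 5 were picked over these same lanes, their values are given with no test. Among them, miR-345-5p stood at 883 ± 393 CPM in DOX-treated culture and 1719 ± 86.4 CPM in vehicle, with 1817 ± 245 CPM in controls. The level of miR-499 was 20921 ± 19967 CPM in DOX-treated culture, a wide spread, and 51188 ± 616 CPM in vehicle. For vehicle over age-matched controls, where miR-1949 had 2.09, the log2 fold change was -0.08 (SE 0.28) for miR-345-5p, 0.01 (SE 0.32) for miR-29a and 0.15 (SE 0.58) for miR-499. It was 0.89 (SE 0.66) for miR-30e and -0.26 (SE 0.30) for miR-133b. By rank, the Spearman correlation was highest for miR-499 at 0.66.

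Detection set miR-1949 apart less than level did. Above background in all 3 vehicle lanes were 91 of the 420 miRNAs, and 0 of these were above background in none of the other 12 lanes. Those above it in 1 to 3 of the other lanes were miR-101b, miR-106b, miR-1224, miR-140, miR-190 and the p53-responsive miR-34a. Their vehicle means were lower, at 378 to 723 CPM, beside a background of 265 to 330 CPM in those lanes. Picking by detection in vehicle favours miRNAs high there, so fold changes are given here with no test. Of these 6, miR-140 had the highest vehicle mean, 723 ± 153 CPM. It stood at 316 ± 43.9 CPM in DOX-treated culture, 327 ± 122 CPM in age-matched controls and 598 ± 300 CPM in MI. Its log2 fold change was -1.20 (SE 0.33) for DOX over vehicle and 1.10 (SE 0.35) for vehicle over controls. Over the 20 alternative settings run, these values ranged from -2.17 to -1.01 and from 0.74 to 2.05.

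The panel held 79 other miRNAs with a number over 1000, of which 9 were tested, 5 lay above background in all vehicle lanes and 0 in all 15 lanes. For DOX over vehicle, 1 of the 9 was called higher and 0 lower, beside 16.5% higher and 13.8% lower of all tested miRNAs, with a median log2 fold change of 0.53 beside 0.27 for all tested miRNAs. The call was miR-1224, with 816 ± 159 CPM in DOX-treated culture and 461 ± 44.1 CPM in vehicle (log2 0.82, SE 0.27, edgeR adjusted p = 0.0207), a call that 6 of 20 alternatives kept. For vehicle over age-matched controls, 0 were called higher (miR-1224 was in 4 of 20 alternatives) and 3 lower, beside 8.26% and 10.1% of all tested miRNAs, with a median of -0.73 beside -0.11. Those 3 were miR-3594-3p (log2 -1.15, SE 0.32), miR-3571 (log2 -1.0, SE 0.32) and miR-3596c (log2 -0.97, SE 0.30), with edgeR adjusted p of 0.0141, 0.0278 and 0.0216. Of the 3 vehicle lanes, miR-3594-3p was above background in 3, miR-3596c in 2 and miR-3571 in 1. Counts of miR-3571 were 47, 42 and 36 in vehicle, beside backgrounds of 47.2, 42.5 and 33.3. In controls they were 16, 35 and 49, beside 19.6, 36.2 and 29.6, so the miR-3571 fold change is limited by background. The call was kept in 13 of 20 alternatives for miR-3594-3p, 6 of 19 for miR-3571 and 8 of 20 for miR-3596c, and for none of them in edgeR with RLE factors, positive-control or spike-in scaling. DESeq2, which uses such factors, called miR-3594-3p alone of the 3 (adjusted p = 0.0226). The control probes differed in the same direction, by a median of -1.06.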

How the data were processed

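MicroRNAs in total RNA were counted with the NanoString nCounter rat panel, 1 lane per sample, per the labels' protocols and the file headers. The authors deposited unnormalized barcode counts, whole numbers at every probe, which are handled as an estimated count because other lines of the sheet are not whole. In a second deposited sheet the counts of 3 other probes are corrected for background. The authors deposited signal scaled by positive controls and then by the miRNA sum, and quantile-normalized signal as group means. No source used here names the software of the quantile step. Another authors' table was left out because its group names fit none of the samples.

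Counts of the 420 miRNA probes were scaled by TMM. miRNAs above lane background (mean plus 2 SD of 8 negative controls) in at least 3 of 15 lanes entered edgeR 4.0.16 (R 4.3.3), whose quasi-likelihood test with robust estimation was run on all 15 samples with 1 mean per group. Each SE of an edgeR fold change was derived as the absolute log2 value divided by the square root of the test's F statistic. Adjusted p-values follow Benjamini-Hochberg over the 109 tested miRNAs. Correlations used log2 CPM with a prior count of 2. The procedure was also run on simulated counts as a check of the code. That simulation used a fixed count filter and held no samples that stood apart, so it is no evidence for the calls here. Alternatives included DESeq2 1.42.0 and limma 3.58.1 on log2(value + 1), other scalings and filters, and samples left out. Background-subtracted counts were rounded. Poisson intervals cover counting error only.

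The named miRNAs were miR-1949, the 5 most and 3 least correlated with it, those above background in all vehicle lanes and at most 3 others, and called late-numbered miRNAs; the comparison with let-7d, the vehicle-to-next-group ratio and the separation of vehicle from all other lanes were chosen after values or sequences were seen. Members and lists were chosen with earlier results of these data known. The fit included miR-1949 among the tested miRNAs, but its p-value is not reported, since it was chosen for these values. No replicate block was used, as the labels give no shared animal or culture. Deviations of same-numbered samples from their group means did not correlate above 0.1 in every pair of any comparison, which cannot exclude a shared origin.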

Additional observations from a re-analysis of the deposited data

Results flagged for a closer look

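All DOX samples in culture lay below their control mean for miR-1949, and all in vivo DOX samples lay above theirs. On the log2 scale the 3 DOX-treated cultures lay at -2.57, -3.0 and -2.22 from the mean of vehicle, and the 3 in vivo DOX samples at 0.77, 0.37 and 0.61 from the mean of age-matched controls. Taken as the log2 fold change in vivo less the one in culture, the gap was 3.13. The fold changes have different controls, so the gap includes the log2 fold change of vehicle over age-matched controls, 2.09. The DOX groups themselves stood at 608 CPM in vivo and 293 CPM in culture. None of the 3 DOX-treated cultures, 2 of the 3 in vivo DOX samples and 1 of the 3 controls were above lane background, so the size of the gap is uncertain. Over the processing alternatives run it ranged from 2.77 under housekeeping scaling to 4.72 with background subtracted. This difference was not tested, since miR-1949 was chosen for its values in these lanes. The sign in vivo turned under housekeeping scaling (log2 -0.11), and in vivo DOX and controls overlapped.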

How the results depend on the processing

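For miR-1949 the log2 fold change of DOX-treated culture over vehicle (-2.54) stayed negative and that of vehicle over controls (2.09) stayed positive under every alternative run. For DOX over vehicle it was -2.86 under positive-control, -2.88 under housekeeping and -3.08 under spike-in scaling, -3.07 without a filter, -3.76 with background subtracted and -3.80 as a ratio of means after subtraction of negative controls, added after seeing the data. For vehicle over controls these values were 2.85, 1.68, 2.96, 2.78, 2.92 and 2.96. In vivo DOX over controls gave 1.02 under positive-control and 1.06 under spike-in scaling, 0.97 with background subtracted and -0.11 under housekeeping scaling. MI over controls turned to 0.83 under positive-control scaling, 0.63 under spike-in scaling and 0.21 without a filter. The cause was not tested. Leaving out 1 replicate gave -2.75 to -2.37, 1.89 to 2.39, 0.39 to 0.74 and -0.98 to -0.17 for the 4 comparisons. The replicate block gave -2.57, 2.09, 0.57 and -0.43. In the labels, same-numbered samples share only a number. Replicates 1, 2 and 3 of both culture groups were read in lanes numbered 7, 8 and 9, at different stage positions. Deviations of same-numbered samples correlated by -0.0907 to -0.00968 for DOX over vehicle and by -0.259 to -0.0769 for vehicle over controls. With 3 samples per group, this cannot show whether they share an animal or culture. The lowest vehicle lane exceeded the highest other lane 1.63-fold under housekeeping scaling, 1.95-fold under positive-control scaling and 2.25-fold under spike-in scaling.

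All 3 vehicle lanes stayed above background at each threshold. DOX-treated culture had 0 lanes above it, 1 at the mean plus 1 SD and 3 at the mean of the negative controls. In vivo DOX had 2, with 1 at the mean plus 3 SD and 3 at 1 SD or at the mean. MI had 1, with 2 at 1 SD and 3 at the mean. Controls had 1, with 0 at 3 SD or at the highest negative control and 3 at the mean. Counts of called miRNAs moved more. For DOX over vehicle, 33 became 1 (positive-control scaling), 12 (housekeeping scaling) and 11 (a fit of only the 2 groups), and 83 without the 3 least typical samples. With 1 sample left out it was 17 to 69: 17, 21 and 69 without in vitro DOX 1, 2 and 3, and 18 and 21 without vehicle 1 and 2. For vehicle over controls, 20 became 10 with RLE factors, 32 under spike-in scaling, 9 with background subtracted, 67 in a fit of only the 2 groups and 54 without the 3 least typical samples. With 1 sample left out it was 4 to 18: 11, 5 and 12 without vehicle 1, 2 and 3, and 4 and 10 without controls 1 and 3.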
